A study of Mus musculus with 6 samples.

Results

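The S100 genes described here are S100a1, S100a3, S100a4, S100a6, S100a10, S100a11, S100a13 and S100a16. They were taken by name, with earlier results of these data known. Each was read through the probe set with the highest mean among those that the platform annotation gives to that gene alone. All 8 were measured, among 19938 genes in all. Of the 10 other mouse S100 genes looked for, 9 were measured and S100a7l2 was not analysed here. RNA was measured on 1 Affymetrix whole-transcript array per sample in HM1, an established line of mouse embryonic stem (ES) cells. The control group (3 arrays) carried the empty pCAGIP.puro plasmid and the Prmt6 overexpression group (3 arrays) carried the same plasmid with mouse Prmt6, an enzyme gene whose product methylates arginines of histones in the nucleus. The medium of both groups held 15% serum and 1000 U/ml of LIF, the cytokine used to keep ES cells from differentiating, and transfected cells were selected with 1 ug/ml puromycin for 3 days. Each group is therefore a selected population of transfected cells. Separate cultures are not stated for the replicates, and p-values then reflect only the spread between these samples, possibly a technical one.

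S100 proteins are small calcium sensors of the EF-hand type that work mostly as dimers. Calcium opens a hydrophobic face on the dimer, which then binds target proteins such as annexins, myosin or enzymes. S100a10 is the exception, since it has lost calcium binding and sits constitutively in a complex with annexin A2 at the membrane. The genes lie mostly in 1 chromosomal cluster, next to genes of the epidermal barrier, and several are known from particular differentiated tissues.

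With the Prmt6 plasmid, 4 of the 8 S100 genes rose, 0 fell and 4 did not pass the test. S100a6 rose 4.88-fold, S100a11 2.53-fold, S100a10 2.23-fold and S100a3 1.33-fold (limma, adjusted p under 0.05 over all genes, n = 3 per group). Over all genes, 10.3% passed, 7.05% as rises and 3.25% as falls, and 1.03% passed with a rise of at least 2-fold, as 3 of these 8 genes did. The median change of the 8 genes was 0.29 on the log2 scale, against 0.00 over all genes. Rises made up 68.5% of all calls, and 80.4% with each array centred on its median. Values are log2 signals, so a difference of 1 is a 2-fold difference.

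**Figure D1:**
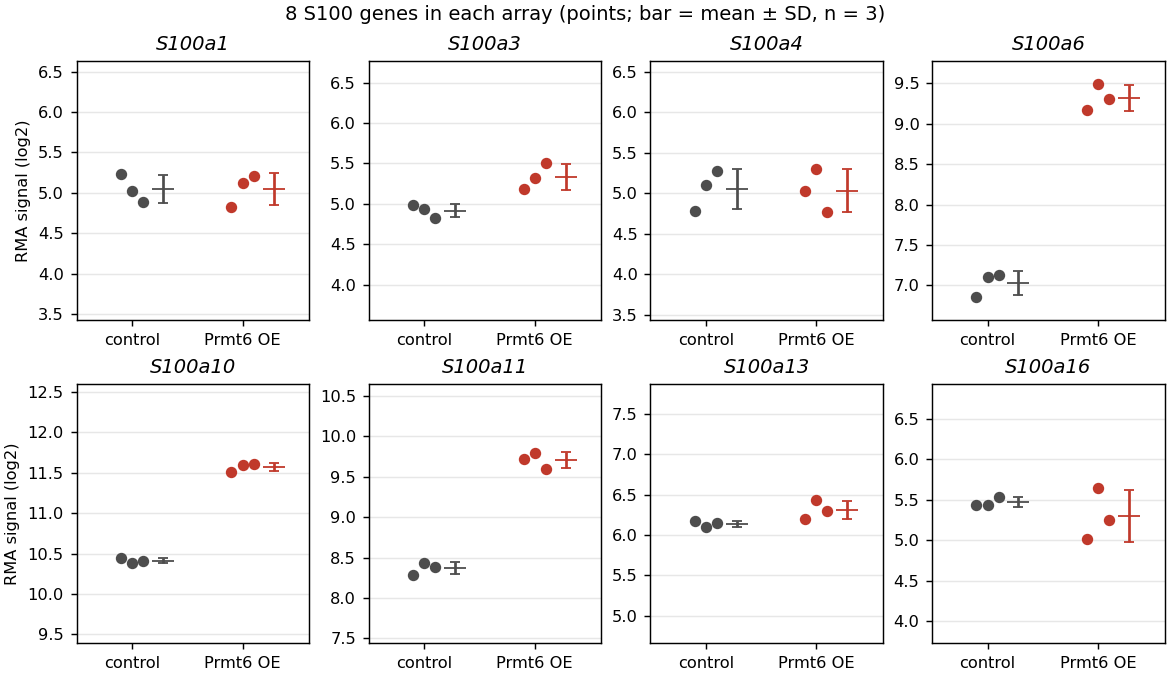
Log2 RMA signal (y axis, each panel spanning the same range of log2 units) of the 8 S100 genes in each of 3 control and 3 Prmt6 overexpression (OE) arrays, with the mean and SD beside the points. The groups lie far apart for S100a6, S100a10 and S100a11, lie close together without overlap for S100a3 and S100a13, and overlap for S100a1, S100a4 and S100a16.

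S100a6, also called calcyclin, is a calcium sensor first known from proliferating fibroblasts. It read 6.86, 7.11 and 7.13 in control and 9.17, 9.49 and 9.30 in overexpression. The lowest overexpression array thus lay more than 2 log2 units above the highest control array. The mean went from 7.03 ± 0.15 to 9.32 ± 0.16 (SD, n = 3), a rise of 2.29 ± 0.11 (log2, SE, limma, adjusted p = 6.98e-06, 95% confidence interval 2.04 to 2.54). Of the 1405 genes that rose, 20 rose by more than S100a6.

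S100a11, also called calgizzarin, binds annexin A1. Its main probe set read 8.29, 8.43 and 8.39 in control and 9.72, 9.80 and 9.60 in overexpression. All overexpression arrays were higher than all control arrays, by a rise of 1.34 ± 0.081 (adjusted p = 2.39e-05). S100a11 was the only one of the 8 genes with another probe set of its own, and that one read 8.21, 8.28 and 8.23 in control and 9.63, 9.76 and 9.62 in overexpression. The other probe set rose by 1.43 ± 0.073 (adjusted p = 9.78e-06 over all probe sets with 1 symbol). The 20 named probe sets with the nearest numbers to the main one were all of chromosome 3 genes, and those nearest to the other were all of chromosome 18 genes, so the other may read a similar copy of the gene and is not separate evidence.

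S100a10, also called p11, tethers annexin A2 and helps carry ion channels to the cell surface. Its control arrays read 10.45, 10.38 and 10.41, and its overexpression arrays 11.51, 11.59 and 11.61. Replicates of S100a10 lay close together in both groups (SD 0.035 in control and 0.053 in overexpression), and the groups were separated by 1.16 ± 0.069 (adjusted p = 2.20e-05). Among rises past the threshold, 105 were larger than that of S100a11 and 156 larger than that of S100a10.

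The rises of these 3 genes were compared with each other through the difference of their signals within each array. The signal of S100a6 minus that of S100a11 went from -1.34 ± 0.086 in control to -0.39 ± 0.14 in overexpression (SD, n = 3), so that S100a6 rose by 0.95 more. Against S100a10 it rose by 1.13 more. S100a11 and S100a10 differed in their rises by 0.18, and their within-array differences overlapped between the groups (-2.16, -1.95 and -2.02 in control, -1.79, -1.79 and -2.01 in overexpression). With 3 arrays against 3, the smallest two-sided p of the exact permutation test is 0.1, which both pairs with S100a6 gave (0.15 after adjustment over 3 pairs), while S100a11 against S100a10 gave 0.2 (0.2). That test therefore could not pass 0.05 for any of the 3 pairs.

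S100a3 is best known as a protein of the hair cuticle. It read 4.98, 4.94 and 4.83 in control and 5.18, 5.32 and 5.50 in overexpression, so the groups did not overlap but lay close. Its rise of 0.42 ± 0.096 passed (adjusted p = 0.0289). The S100a3 call ended with 1 array left out, for control replicate 1 (adjusted p = 0.0689), 2 (0.0780) and 3 (0.111) and overexpression replicate 2 (0.0804) and 3 (0.0603), and held without overexpression replicate 1 (0.0201). In the reference annotation the gene model of S100a2 lies inside that of S100a3, and S100a2 was at -0.31 ± 0.11 (adjusted p = 0.114) without passing.

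S100a13, a partner of the growth factor FGF1 in its unconventional release from cells, read 6.17, 6.10 and 6.15 in control and 6.20, 6.43 and 6.30 in overexpression. All overexpression arrays were above the control arrays by a small margin, and the difference of 0.17 ± 0.081 did not pass (adjusted p = 0.242, 95% confidence interval -0.014 to 0.35). With S100a13, 5 of the 8 S100 genes had all overexpression arrays above all control arrays, and 0 had them all below. Over all genes this held for 17.0% above and 12.7% below, 29.7% together.

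S100a4, known as metastasin and as a marker of motile and fibroblast-like cells, binds non-muscle myosin IIA. It read 4.78, 5.10 and 5.27 in control and 5.03, 5.30 and 4.77 in overexpression, with full overlap. Its difference was -0.017 ± 0.16 (adjusted p = 0.968), and its 95% confidence interval of -0.38 to 0.35 does not reach the change of any of S100a6, S100a10 and S100a11. The sign of the S100a4 difference turned with arrays centred on their medians (0.03) and with quantile normalization (0.044).

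S100a1, a calcium sensor of heart and skeletal muscle that acts on the ryanodine receptor, read 5.23, 5.02 and 4.89 in control and 4.83, 5.12 and 5.21 in overexpression. The S100a1 arrays overlapped, with a difference of 0.0067 ± 0.12 (adjusted p = 0.984, 95% confidence interval -0.27 to 0.29). S100a16, a broadly expressed family member, read 5.43, 5.44 and 5.54 in control and 5.01, 5.65 and 5.25 in overexpression. Its overexpression arrays spread around the control arrays (SD 0.32 against 0.061), and the difference of -0.17 ± 0.15 did not pass (adjusted p = 0.548). In the reference annotation the models of S100a1 and S100a13 lie on opposite strands and overlap by 98 bases. Detection calls were not used here, so the low signals of S100a1, S100a3, S100a4 and S100a16 are not separated from background. These 4 genes, S100a3 among them, fell below the median of the gene means, while all 8 passed the 30th percentile.

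The 3 promoters that follow are shown because the data set these genes apart: S100a6 and S100a11 rose together, while S100a4, which lies close to S100a6, overlapped between the groups. The low signal of S100a4 is not separated from background, so its overlap may only reflect that. S100a10, which also rose, had no promoter entry and is not shown. Each is the stretch of 250 bases before an annotated start, 5′ to 3′ along the gene, from RefSeq on build GRCm38.p6. Capitals mark matches, on either strand, to any of 4 motifs: the AP-1 site TGANTCA, the TEAD site GGAATG, the TATA box TATAAA and the E-box CACGTG.
S100a6 (chr3:90612644-90612893, plus strand): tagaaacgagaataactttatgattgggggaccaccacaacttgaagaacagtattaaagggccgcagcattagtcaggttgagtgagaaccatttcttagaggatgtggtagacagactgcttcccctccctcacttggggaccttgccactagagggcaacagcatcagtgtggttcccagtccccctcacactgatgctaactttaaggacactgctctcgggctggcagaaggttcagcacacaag
S100a11 (chr3:93520246-93520495, plus strand): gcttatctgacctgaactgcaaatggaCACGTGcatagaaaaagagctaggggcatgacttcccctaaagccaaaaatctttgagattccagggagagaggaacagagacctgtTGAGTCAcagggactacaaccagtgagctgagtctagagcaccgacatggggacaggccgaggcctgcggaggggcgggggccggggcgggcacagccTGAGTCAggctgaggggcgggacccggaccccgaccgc
S100a4 (chr3:90603520-90603769, plus strand): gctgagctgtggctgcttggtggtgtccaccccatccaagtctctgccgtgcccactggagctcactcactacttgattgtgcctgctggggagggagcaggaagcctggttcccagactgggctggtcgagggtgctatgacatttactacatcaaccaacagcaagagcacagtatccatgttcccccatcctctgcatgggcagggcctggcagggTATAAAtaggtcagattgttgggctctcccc
S100a11 holds 2 AP-1 matches, both reading TGAGTCA, at 136 and 38 bases before the start, and an E-box 223 bases before it. S100a4 holds a TATA box 31 bases before its start, and the window of S100a6 has none of the 4 motifs. A window of S100a16, which did not pass, also holds an AP-1 match, TGAATCA, 192 bases before the start. Of the 11 windows of the S100 genes, 2 hold the AP-1 motif, 1 the TEAD motif, 2 the TATA box and 1 the E-box. Of 32851 promoter windows of this length, 6.75% hold the AP-1 motif, 12.6% the TEAD motif, 12.4% the TATA box and 6.02% the E-box. No match overlapped another motif in these windows. A match is a description of the letters only, since no factor binding was measured here.

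Of the 9 other measured S100 genes, 0 rose and 0 fell past the threshold (limma), and 3 (33.3%) had an unadjusted p under 0.05, as 4889 (24.5%) of all genes had. The 3 were S100a7a, a skin protein (0.36 ± 0.11, adjusted p = 0.0778), S100a2 (-0.31 ± 0.11) and S100z (-0.27 ± 0.09, adjusted p = 0.102). The S100a7a arrays read 5.04, 5.42 and 5.22 in control and 5.49, 5.56 and 5.71 in overexpression, so they did not overlap. For S100a2 and S100z, all overexpression arrays lay below all control arrays. Over all genes, 17.0% had all overexpression arrays above and 12.7% had them all below. S100a7a passed without control replicate 2 (adjusted p = 0.0457), when the 30% of genes with the lowest means were dropped (0.0359), with arrays centred on medians (0.0348), with quantile normalization (0.0353) and with a trended and robust variance prior (0.0488). S100a2 passed without overexpression replicate 3 (0.0146) and with array weights (0.0342).

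S100a8 and S100a9, the partner subunits of calprotectin in neutrophils and monocytes, were at 0.25 ± 0.15 and 0.10 ± 0.086 (adjusted p = 0.337 and 0.522). S100b, abundant in astrocytes, was at 0.09 ± 0.13, S100a14, an epithelial member, at -0.077 ± 0.084, S100a5 at -0.11 ± 0.16 and S100g, the vitamin D-dependent calbindin of the intestine, at -0.16 ± 0.095. Signals of these 9 genes lay between 3.41 and 5.71. Only 1 of the 9, S100a7a, lay above the 30th percentile of gene means, and 0 lay above the median. Their low signals are thus not separated from background, and a missing call says little about them. The median change of the 9 genes was -0.077, beside 0.29 for the 8 genes above. The 8 genes were chosen with earlier results of these data known, so this contrast is no test of a difference. Whether the named 8 and the other 9 genes differ as groups was not tested.

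**Figure D2:**
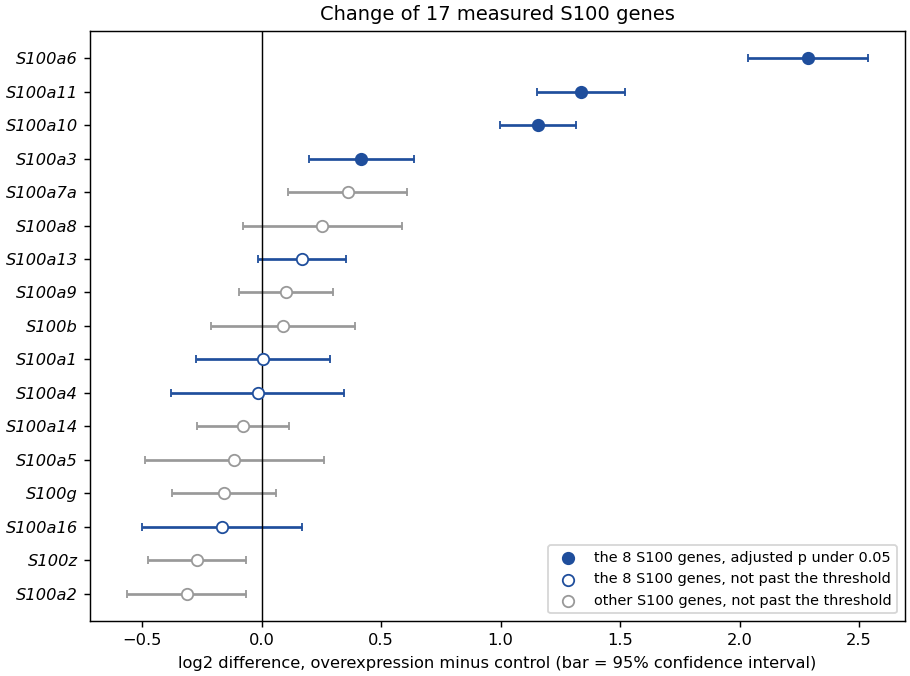
Log2 difference between Prmt6 overexpression and control (x axis) for the 17 measured S100 genes, with 95% confidence intervals from limma (n = 3 per group). Filled points passed an adjusted p of 0.05, and S100a6, S100a11 and S100a10 lie apart from the other 14 genes.

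The list of genes whose proteins are known to bind S100 proteins held 27 genes, all measured, of which 7 rose, 1 fell and 19 did not pass. The share that rose was 25.9%, beside 7.05% over all genes, and the median change of the list was 0.07 on the log2 scale. Among genes above the median of gene means, 6 of 16 partners rose, beside 19.4% of all genes there. The list was chosen with earlier results of these data known, so its share is no test of the partners. The largest rises were those of Anxa2 and Anxa1. Annexins bind membrane phospholipids in the presence of calcium. Anxa2, the partner of S100a10, read 7.22, 7.30 and 7.28 in control and 9.89, 9.99 and 9.88 in overexpression, a rise of 2.65 ± 0.071 (adjusted p = 4.27e-07). Anxa1, the partner of S100a11, read 8.09, 8.11 and 7.99 in control and 10.22, 10.36 and 10.25 in overexpression. Both annexins thus had their groups well apart, with Anxa1 rising by 2.21 ± 0.075 (adjusted p = 1.31e-06).

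Anxa11, a partner of S100a6, read 8.13, 8.27 and 8.04 in control and 8.36, 8.25 and 8.22 in overexpression. The groups overlapped, and the difference of 0.13 ± 0.085 did not pass (adjusted p = 0.401). Cacybp, the ubiquitin-ligase adaptor named for binding S100a6, was at 11.67 in both groups (difference 0.00 ± 0.075, SD 0.084 in control and 0.051 in overexpression). Sugt1, a chaperone-associated partner of S100a6, was at 0.013 ± 0.08 (adjusted p = 0.947).

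Ahnak, a giant scaffold protein that joins the complex of S100a10 and annexin A2, read 7.85, 7.74 and 7.80 in control and 9.17, 9.32 and 9.24 in overexpression. Its groups did not overlap, with a rise of 1.45 ± 0.074 (adjusted p = 8.76e-06). Plat, the tissue plasminogen activator that S100a10 can bind at the cell surface, rose by 0.73 ± 0.10 (adjusted p = 0.00259). Other partners of S100a10 did not pass, among them the chromatin remodeller Hltf (-0.20 ± 0.081) and the potassium channel Kcnk3 (-0.13 ± 0.067). The calcium channels Trpv5 and Trpv6, the serotonin receptor Htr1b, the sodium channel Scn10a and the acid-sensing channel Asic1 lay between -0.19 and 0.14 without passing.

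Among partners of S100a4, Myh9, the heavy chain of non-muscle myosin IIA, rose by 0.71 ± 0.073 (adjusted p = 0.000502) and the liprin gene Ppfibp1 by 0.68 ± 0.099 (adjusted p = 0.00341), in the arrays where S100a4 itself was at -0.017. Myh9 had another probe set that was at 0.16 ± 0.12 (adjusted p = 0.465 over all probe sets), so its probe sets disagreed, and the mean of both gave 0.43. The same held for Anxa6, an annexin that binds several S100 proteins, which rose by 1.22 ± 0.076 on its main probe set and was at 0.017 ± 0.17 on the other, with a mean of 0.62.

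Fgf1, whose protein leaves cells with S100a13, was the 1 partner that fell, from 6.01 ± 0.13 to 5.64 ± 0.075 (SD, n = 3, adjusted p = 0.0329). Leaving out control replicate 1 (adjusted p = 0.110) or 2 (0.118), or overexpression replicate 1 (0.0691) or 2 (0.109), ended the call of Fgf1. The other genes around S100a13, Syt1 and Il1a, were at 0.30 ± 0.086 and -0.27 ± 0.13 (adjusted p = 0.0645 and 0.259). Syt1, a synaptic calcium sensor that takes part in FGF1 release, passed as a rise in 4 settings: without overexpression replicate 2 (adjusted p = 0.0459), above the 30th percentile of means (0.0285), with centred arrays (0.0337) and with quantile normalization (0.0283). Partners of S100a1 did not pass either, with the calcium release channels Ryr2 at -0.25 ± 0.075, Ryr1 at 0.057 ± 0.075 and the calcium pump gene Atp2a2 at -0.20 ± 0.071. Ager, the cell surface receptor for secreted S100 proteins, was at -0.06 ± 0.11 (adjusted p = 0.792). The phosphatase Ppp5c was at -0.0067 ± 0.066 and Padi3, the enzyme that citrullinates S100a3, at 0.09 ± 0.087.

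**Figure D3:**
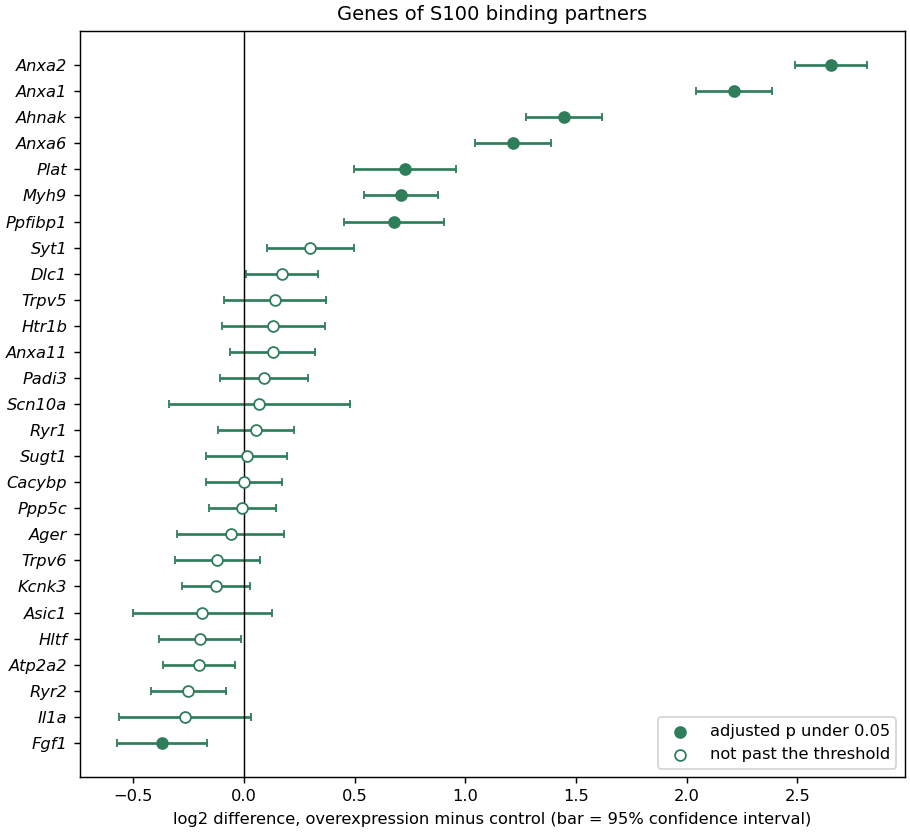
Log2 difference between Prmt6 overexpression and control (x axis) for 27 genes of S100 binding partners, with 95% confidence intervals from limma (n = 3 per group). Filled points passed an adjusted p of 0.05, from Anxa2 at 2.65 down to Fgf1 at -0.37.

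All 8 S100 genes lie on mouse chromosome 3. In the order of the reference annotation, the block from S100a1 to S100a10 holds 101 genes, 15 of them S100 genes. S100a6 follows S100a5 directly, S100a11 and S100a10 have 1 gene between them, and 87 genes lie between S100a6 and S100a11. S100a6 and S100a3 lie toward one end of the block, S100a11 and S100a10 at the other. S100a5, the direct neighbour of S100a6, did not pass and read 4.47, 4.70 and 4.58 in control and 4.79, 4.08 and 4.54 in overexpression. Of the 86 neighbours without the S100 name, 48 were measured, and 3 rose, 0 fell and 45 did not pass, with 9 (18.8%) at an unadjusted p under 0.05, beside the 24.5% over all genes. The 6.25% that rose was near the 7.05% over all genes, and the median change of the neighbours was 0.023. Most neighbours had low signals, with 14 of the 48 above the 30th percentile of gene means and 5 above the median. Of those 14, 4 rose and 1 fell, while 13.1% of all genes above that percentile rose and 7.09% fell. Of those 5, 2 rose, while 19.4% of all genes above the median rose.

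The neighbours that rose were Lce1h (1.19 ± 0.15, adjusted p = 0.00186) and Lce1c (0.85 ± 0.16, adjusted p = 0.0106), late envelope proteins of the epidermis, and Sprr1a, a small proline-rich envelope protein (0.92 ± 0.14, adjusted p = 0.00495). Lce1h read 5.65, 5.68 and 5.10 in control and 6.53, 6.67 and 6.80 in overexpression. The Lce1 and Sprr genes are families of near-identical genes, so signal can be shared among their probe sets and values of single genes are uncertain. The genes of S100-fused proteins, which join an S100 domain to long repeats in skin and hair, lie in the same block. Those measured are among the neighbours counted above. All 6 that were measured did not pass, with 0 at an unadjusted p under 0.05, from -0.13 for Hrnr to 0.21 for Rptn, and Flg2, Tchh, Tchhl1 and Crnn in between. Flg2 and Rptn (means of 3.63 and 3.71 in control) lay below the 30th percentile of gene means (4.85), so a missing call says little about them.

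**Figure D4:**
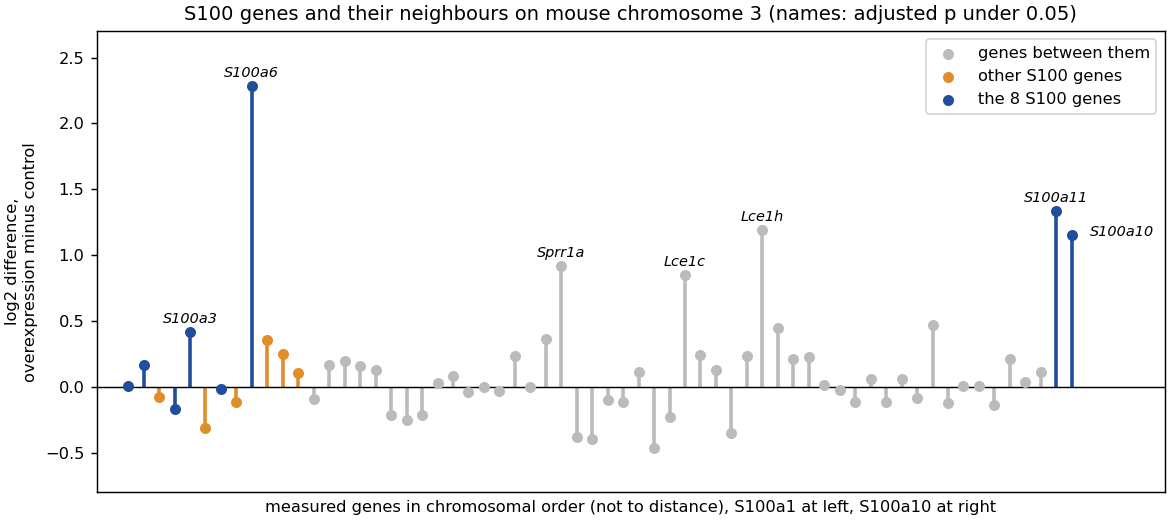
Log2 difference between Prmt6 overexpression and control (y axis) for the measured genes of the S100 block on mouse chromosome 3, in chromosomal order and not to distance, with the 8 S100 genes, the other S100 genes and the 48 genes between them in separate colours. S100a6 stands highest near the left end, with S100a3 named to its left at a lower height. S100a11 and S100a10 stand together at the right end. Sprr1a, Lce1c and Lce1h are the named genes between S100a6 and S100a11.

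The genes with the profile most like that of S100a6 were found by the smallest distance over the 6 arrays, with each gene given as its difference from the control mean. S100 genes and genes with predicted, clone-type or mitochondrial names were left out of this search. The 5 nearest of the rest were Anxa3, another annexin (distance 0.28, change 2.29), Csrp1, a LIM-domain protein of the actin cytoskeleton (0.29, 2.29), Anxa1 (0.32, 2.21), Igf2, an imprinted growth factor (0.34, 2.22), and Lgals1, the lectin galectin-1 (0.34, 2.43). Distances and changes are on the log2 scale. The measure rests on 6 arrays in 2 groups, so it mainly picks genes with a like difference between the groups.

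The markers of ES cells were high in both groups: of 10, 0 rose, and Nanog (-0.34), Sox2 (-0.29) and Tdgf1 (-0.35) fell, and the log2 of their summed signal was 14.34 to 14.41 in control and 14.33 to 14.34 in overexpression. Genes of other cell types moved in the same arrays as S100a6, S100a10 and S100a11. Of 10 fibroblast markers, 6 rose, led by Col1a1 (1.34), Col1a2 (0.98) and Pdgfrb (0.47), and the log2 of their summed signal went from 8.58 to 8.74 in control to 9.33 to 9.46 in overexpression. Lum, Fap, Postn and Thy1 did not pass, with Lum and Fap at 2.48 to 3.11 in all arrays. Of 5 smooth muscle markers, Acta2 (4.53), Tagln (3.29) and Cnn1 (1.21) rose, while Myh11 (0.013) and Des (-0.04) did not pass, and their summed signal was 8.82 to 8.95 in control and 12.19 to 12.32 in overexpression.

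Of 8 myeloid markers, Cd68 (0.39) and Csf1r (0.36) rose and 6 did not pass, with a summed signal of 8.17 to 8.27 in control and 8.44 to 8.48 in overexpression. Of 8 keratinocyte markers, Krt14 (0.48) rose and 7 did not pass (7.92 to 8.0 in control, 7.94 to 8.13 in overexpression), and of 5 endothelial markers, Tek fell (-0.70) and 4 did not pass (8.46 to 8.48 in control, 8.16 to 8.30 in overexpression). The shares that rose were 60% of fibroblast, 60% of smooth muscle, 25% of myeloid and 12.5% of keratinocyte markers, beside 7.05% over all genes. Of ES and endothelial markers 30% and 20% fell, beside 3.25% over all genes. The keratinocyte and endothelial shares rest on 1 gene each. The part of these cell types in the S100 values was not tested. In bulk RNA a change in the number of cells of a type and a change in RNA per cell cannot be told apart. Prmt6 itself read 6.84, 6.58 and 7.12 in control and 7.32, 7.40 and 7.33 in overexpression (0.50 ± 0.13, adjusted p = 0.0406). The Prmt6 call ended with any 1 array left out other than control replicate 3 (adjusted p from 0.0788 to 0.119, and 0.0108 without that one).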

How the data were processed

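The deposited values are log2 signals from robust multi-array average (RMA) processing by the authors, per the submitters' processing notes. RMA corrects background, brings arrays to 1 distribution and summarizes the probes of a probe set. No version or setting is named in these sources. Shifts common to most genes are removed by that step. Of 35556 probe sets, 21789 carried 1 gene symbol in the platform annotation of 2016. Array medians lay between 5.54 and 5.62, and precision is limited by having 3 arrays per group.

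Overexpression was compared with control on 19938 genes by two-sided limma tests (version 3.58.1, R 4.3.3) using lmFit and eBayes with a constant prior, with Benjamini-Hochberg adjustment over all genes and a threshold of 0.05. No list was tested as a set. The procedure was run on simulated data with planted changes and independent noise for each gene and array. That run cannot show how the test behaves if the replicates are technical. The S100 genes, the lists and the rules were chosen with earlier results of these data known. S100a2 was added to the list of other S100 genes, and the other probe set of S100a11 to the alternatives, after the files were seen. Named genes are all measured S100 genes, partners that passed and 7 fixed ones, neighbours that passed (at most 8), Prmt6 and the 5 genes most like the S100 gene with the largest change. Further genes of these lists and the markers were named after their values were seen. Alternative settings used a block for the replicate number, dropped each array in turn, or changed 1 choice: filters on low means, centring, quantile normalization, averaged probe sets, a trended and robust prior, and array weights. Promoters matched by symbol for 7 of the 8 genes, all but S100a10. Figures were drawn with matplotlib 3.10.9.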

Additional observations from a re-analysis of the deposited data

How the results depend on the processing

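S100a6, S100a10 and S100a11 passed as rises under every alternative run, from 2.20 to 2.37, 1.08 to 1.20 and 1.29 to 1.39 on the log2 scale. That range leaves out the other probe set of S100a11 taken alone (1.43), which may read a similar copy of the gene. The 4 rises among the 8 S100 genes became 3 to 4 with 1 array left out, 3 with the replicate block and 3 among genes above the median of means, where S100a3 was not tested, and 0 fell in any setting. S100a1, S100a4, S100a13 and S100a16 passed in none, and the sign of S100a1 and of S100a4 turned in 4 and 6 settings.

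With 1 array left out, rises among the other S100 genes ranged from 0 to 1 and falls from 0 to 1, falls among partners from 0 to 1, and falls among cluster neighbours from 0 to 1 (Lce1b without control replicate 2, Sprr4 without overexpression replicate 2). Over all genes, rises ranged from 862 to 1232 and falls from 280 to 763. With the replicate block, 0 partners and 383 of all genes fell. Among genes above the 30th percentile of means, the only other S100 gene tested, S100a7a, rose. There, 8 of 23 partners rose and 2 fell (Fgf1 and Ryr2), and 4 of 14 neighbours rose and 1 fell (Sprr4). Of all 13961 genes above that percentile, 990 (7.09%) fell while 1832 (13.1%) rose. Among those above the median, 1079 (10.8%) of 9971 fell and 1937 (19.4%) rose. The share of all genes that rose was thus above the 7.05% without a filter. With arrays centred on their medians, 1 other S100 gene rose, while 1838 of all 19938 genes rose and 447 fell. With quantile normalization, 1 other S100 gene rose and 2 partners fell (Fgf1 and Atp2a2), while 1512 of all genes rose and 810 fell. With a trended and robust variance prior, 1 other S100 gene rose, 2 partners fell (Fgf1 and Atp2a2) and 1 neighbour fell (Sprr4). Under that prior, 2061 of all genes rose and 1115 fell. With array weights, 1 other S100 gene fell (S100a2), 2 partners fell (Fgf1 and Ryr2) and 1098 of all genes fell. The cause was not tested. Crct1, a neighbour at 0.47, passed upward in 7 of these settings.

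Replicate numbers did not pair the arrays: deviations of same-numbered arrays correlated at -0.019, -0.016 and -0.117 across genes. In the fit with the replicate block, 1018 genes rose in place of 1405, and the calls of S100a3 (adjusted p = 0.0739), Fgf1 (0.0881) and Prmt6 (0.0615) ended.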
